A study of Mus musculus with 15 samples.

Results

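Cyclins, the cyclin-dependent kinases (CDKs) they activate and the CDK inhibitors are the core of the cell division machinery, and their messages were measured here in fat cells sorted from mice. The set holds every probe set whose mouse gene symbol is Cdk with a number, Ccn with 1 letter and an optional number, begins with Cdkn1 or Cdkn2, or is Cdk5r1 or Cdk5r2. That gave 55 genes, each with 1 probe set, of 25206 probe sets in all. They were 5 CDKs of the cell cycle, 7 filed with the transcription CDKs, 7 other CDKs, 11 cyclins of the cell cycle, 7 cyclins of transcription, 7 other cyclins, 3 Cip/Kip inhibitors, 6 genes with Cdkn2 names and 2 activators of CDK5. All of them are cyclins, CDKs or CDK inhibitors except Cdkn2aip, Cdkn2aipnl, Cdk5r1 and Cdk5r2. Cdkn2aip and Cdkn2aipnl share the start of the symbol but encode no CDK inhibitor. Cdk5r1 and Cdk5r2 encode activators of CDK5 that are not cyclins.

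Total RNA of sorted adipocytes was hybridised to 15 one-colour Affymetrix arrays, 1 per sample, from UCP1/Tomato mice aged 8 to 10 weeks. Brown adipocytes positive for UCP1, from brown fat of untreated mice, gave 3 arrays (BAT). UCP1-positive cells from inguinal fat gave 3 arrays after the beta-adrenergic agonist CL316243 (CL), 2 after the CDK inhibitor roscovitine (RS) and 3 after the PPARG agonist rosiglitazone (RG). White adipocytes sorted as UCP1-negative from the inguinal depot of mice given no drug gave 4 arrays (WAT). The labels call the CL and RG cells beige, and the RS cells beige in one field and brite in another. They name GFP as the marker of the UCP1 gate although the strain name holds Tomato. Sex, dose, length of treatment and whether arrays came from separate animals are not given, so p-values here cover only the spread from sample to sample, which may be technical. No untreated UCP1-positive inguinal cells are among the groups, so a treated group against WAT differs both in treatment and in the gate.

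Most CDKs phosphorylate their substrates only when bound to a cyclin. D cyclins with Cdk4 or Cdk6 phosphorylate the retinoblastoma protein early in the cycle, E and A cyclins with Cdk2 drive DNA synthesis, and B cyclins with Cdk1 drive mitosis, while the Cip/Kip and INK4 proteins hold these kinases back. A second branch, Cdk7, Cdk8, Cdk9, Cdk12, Cdk13 and Cdk19 with cyclins H, C, T and K, acts on RNA polymerase II and the Mediator complex. Of these, Cdk7 also activates other CDKs. Mature adipocytes have left the cell cycle. In adipose tissue Cdk5, which is activated by Cdk5r1 and Cdk5r2 instead of a cyclin, phosphorylates the fat cell regulator PPARG, and roscovitine inhibits Cdk5 along with Cdk1, Cdk2, Cdk7 and Cdk9.

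Promoter sequence is shown for Cdk12, Cdk4 and Cdk9, the 3 members called lower than WAT in BAT, CL and RS, so that the sequence before their annotated starts can be compared directly. Each line gives the 250 bases before the transcript start in the promoter table, 5′ to 3′ on the gene's strand, from RefSeq on build GRCm38.p6, where 43 of the 55 members had an entry. Capitals mark motif matches on either strand. The windows of Cdk4 and Cdk9 end at the edge of the RefSeq gene span, whereas that of Cdk12 begins 622 bases inside it, since the span of Cdk12 starts at 98202433. Positions below count from the start in the promoter table.
Cdk12, chr11:98203055-98203304, plus strand: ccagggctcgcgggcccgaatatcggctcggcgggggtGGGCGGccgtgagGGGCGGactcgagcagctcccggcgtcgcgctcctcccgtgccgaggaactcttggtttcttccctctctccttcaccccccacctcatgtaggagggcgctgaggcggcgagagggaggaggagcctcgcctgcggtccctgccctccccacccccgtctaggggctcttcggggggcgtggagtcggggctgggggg
Cdk4, chr10:127063285-127063534, plus strand: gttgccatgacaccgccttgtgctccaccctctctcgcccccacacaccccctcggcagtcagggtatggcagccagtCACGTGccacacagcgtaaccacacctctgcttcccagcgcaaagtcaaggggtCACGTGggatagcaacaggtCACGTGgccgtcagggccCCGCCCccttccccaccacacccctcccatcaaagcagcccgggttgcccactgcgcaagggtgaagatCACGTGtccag
Cdk9, chr2:32712785-32713034, minus strand: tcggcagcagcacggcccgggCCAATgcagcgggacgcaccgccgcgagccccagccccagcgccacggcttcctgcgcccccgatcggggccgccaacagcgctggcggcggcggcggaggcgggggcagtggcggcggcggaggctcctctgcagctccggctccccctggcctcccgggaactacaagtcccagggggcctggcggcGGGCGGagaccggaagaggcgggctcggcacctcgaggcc
The GC box GGGCGG was found in all 3, beginning at -212 and -199 in Cdk12, at -80 on the other strand in Cdk4 and at -40 in Cdk9. Of 32851 RefSeq promoter windows of the same length, 32.7% hold it. The E box CACGTG, chosen after the sequences were seen, occurred 4 times in Cdk4, at -172, -118, -98 and -11, and in neither of the others, and 6.02% of windows hold it. The CCAAT box CCAAT occurred once, at -229 in Cdk9, and is in 33.8% of windows. No match was found for the E2F sites TTTGGCGC and TTTCCCGC, the TATA box TATAAA, the cyclic AMP element TGACGTCA or the PPARG element, a direct repeat of AGGTCA with 1 base between, which 0.417%, 0.895%, 12.4%, 1.55% and 0.0335% of windows hold. None of these motifs overlapped another in the 3 windows.

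Array values are on the log2 scale, so a difference of 1 is a ratio of 2. Array medians lay between 3.33 and 3.47, and the spread over probe sets was 1.91 to 2.00 (SD) in WAT against 1.65 to 1.85 in the other groups. No detection call was used here, and 28 of the 55 members had a mean under 5 over all arrays. Ucp1, on which the cells were gated, read 10.22 to 11.22 in BAT, 10.19 to 10.53 in CL, 6.05 to 8.43 in RS and 7.69 to 8.88 in RG, against 3.20 to 4.47 in WAT. Adipoq, the adiponectin gene of mature fat cells, read between 9.72 and 11.04 in every array except WAT 4, at 7.85. Macrophage markers were measured for 19 of the 20 genes listed. Relative to the mean of all arrays their mean level was -0.92 to -0.59 in BAT, -0.78 to 0.09 in CL, -1.30 to -0.68 in RS and -0.92 to 0.11 in RG, against 1.10 to 2.37 in WAT, and 18, 16, 17 and 16 of them were called lower than in WAT. The 16 stromal and preadipocyte markers lay at -1.15 to -0.60 in BAT, -0.65 to 0.42 in CL, -1.66 to -0.38 in RS and -0.48 to 0.32 in RG, against 0.62 to 2.23 in WAT, with 15, 10, 14 and 7 called lower. The mean of 14 endothelial markers was -2.18 in RS 3 and -0.02 in RS 4. WAT 4, by its Adipoq, and RS 3 stood apart, and calls that ended without both are named below. These markers move with every comparison against WAT, and their part in the member differences was not tested. In bulk RNA, fewer cells of a type and less RNA per cell cannot be told apart.

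Against WAT between 5 and 16 of the 55 members were called, with lower calls outnumbering higher ones in each group. In BAT 16 of the 55 members were called by limma at an adjusted p under 0.05, 4 higher and 12 lower, where 44% of all probe sets were called, 27.6% higher and 16.4% lower. In CL 7 were called, 2 higher and 5 lower, against 25.2% of all probe sets, 15.2% higher and 9.97% lower. In RS 10 were called, 2 higher and 8 lower, against 21.4%, 11.1% higher and 10.3% lower. In RG 5 were called, 1 higher and 4 lower, against 11.4%, 5.19% higher and 6.24% lower. As shares of the members these calls were 29.1% in BAT, 12.7% in CL, 18.2% in RS and 9.09% in RG. All 4 comparisons share the WAT arrays. Lower calls alone were 21.8% of the members in BAT and 14.5% in RS, above the share of all probe sets. They were close to it elsewhere, just above in RG at 7.27% and just below in CL at 9.09%. Higher calls were 7.27% in BAT, 3.64% in RS, 1.82% in RG and 3.64% in CL, each below that share. The median difference of the members was -0.28 in BAT, -0.04 in CL, -0.16 in RS and -0.08 in RG, while all probe sets had a median of 0.18 in BAT, 0.13 in CL, 0.13 in RS and 0.10 in RG. The sign of that median differed with brightness. Among the 6037 probe sets with a mean of at least 5 the median was -0.25 in BAT and -0.21 in RS, and for the 27 members of that brightness it was -0.35 in BAT and -0.21 in RS. Of those 27, 8 were called lower in BAT, 5 in RS, 2 in CL and 2 in RG. The shares of all such probe sets were 34.4%, 21%, 19.5% and 10.5% in the same order. As a share of the 27, the lower calls lay below these values in all 4 groups. On the values as deposited, the share of members called was in all 4 groups below the share of all probe sets, but in BAT and RS the order turned with the scaling. Subtracting each array's median gave 24 members in BAT, 4 higher and 20 lower, or 43.6% of the members against 40% of all probe sets, and a split of 1 higher and 9 lower in RS. After quantile normalization the share in BAT was 25.5% of the members against 24.7% of all probe sets, and in RS 12.7% against 9.74%. Without CL 4 the CL count was 3, without RS 4 the RS count was 6, and without both WAT 4 and RS 3 the RS count was 5 and the RG count 3. The RG count was 1 without WAT 2 or RG 2 and 2 without WAT 4, RG 3 or RG 4.

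**Figure D1:**
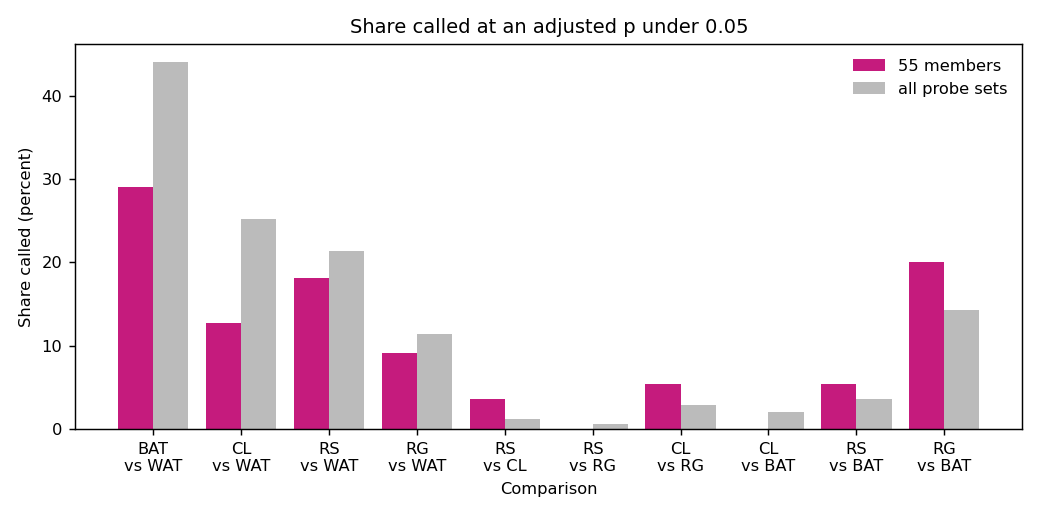
Share of the 55 members (coloured bars) and of all 25206 probe sets (grey bars) called by limma at an adjusted p under 0.05, in percent, for 10 comparisons. In the 4 comparisons with WAT, on the values as deposited, the member bars stand below the grey ones, with 29.1% against 44% in BAT.

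**Figure D2:**
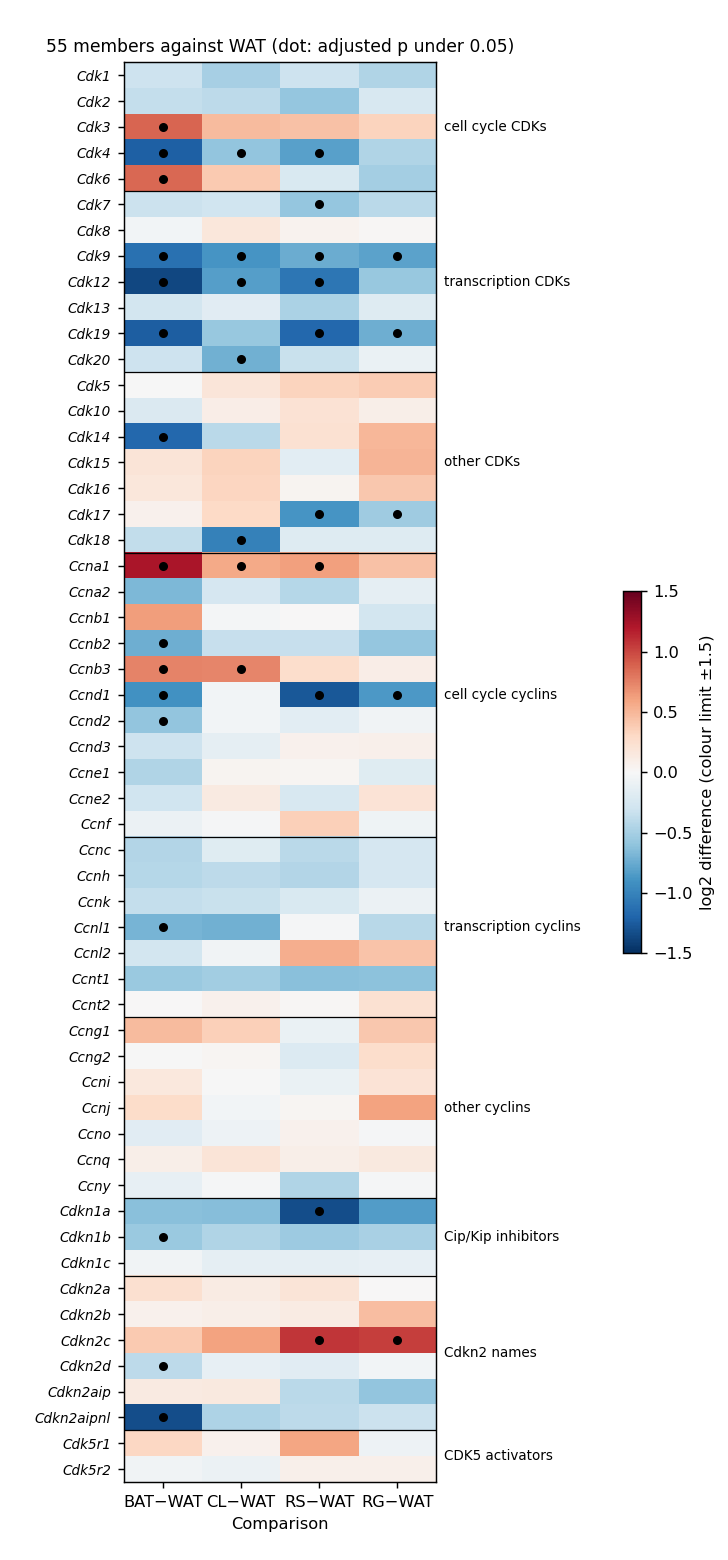
Log2 difference of each member from WAT in BAT, CL, RS and RG, by role, blue where lower and red where higher than WAT. Dots mark an adjusted p under 0.05 (limma), and Cdk9 is the only row with 4 dots.

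Of the 7 kinases filed under transcription, 3 fell in BAT, 3 in CL, 4 in RS and 2 in RG, and none was called higher. Cdk20, which is also known as an activating kinase of Cdk2, is 1 of the 3 in CL, beside Cdk9 and Cdk12. Of all probe sets, 16.4% were called lower in BAT, 9.97% in CL, 10.3% in RS and 6.24% in RG. Among probe sets with a mean of at least 5, where Cdk12 and Cdk19 lie, 34.4% were called lower in BAT. Cdk9, the kinase of the elongation factor P-TEFb, was the single member called lower than WAT in all 4 groups. Cdk9 had log2 levels of 4.02, 3.61 and 3.83 in BAT, 3.85, 4.38 and 3.93 in CL, 4.23 and 4.16 in RS, 3.95, 4.28 and 4.17 in RG, and 4.91, 5.03, 4.80 and 5.02 in WAT. Every WAT array lay above every other array. The log2 difference from WAT was -1.12 ± 0.16 (SE, adjusted p = 0.000159) in BAT, -0.89 ± 0.16 (SE, adjusted p = 0.00198) in CL, -0.74 ± 0.18 (SE, adjusted p = 0.0125) in RS and -0.81 ± 0.16 (SE, adjusted p = 0.00693) in RG. Its mean was 3.82 ± 0.21 in BAT and 4.94 ± 0.11 in WAT (SD, n = 3 and 4). The Cdk9 call in RS against WAT was lost without RS 4 (adjusted p = 0.0693), after quantile normalization (adjusted p = 0.135) and without both WAT 4 and RS 3 (adjusted p = 0.075), within a range of 0.00834 to 0.135 over all settings. The Cdk9 difference itself was -0.45 after quantile normalization. Here and below, losses under the replicate block, described at the end, are not listed gene by gene. The ranges over all settings do include that fit.

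Cdk12, which phosphorylates the polymerase on long genes together with cyclin K, fell in 3 groups. Cdk12 had log2 levels of 5.03, 5.49 and 5.64 in BAT, 6.11, 6.03 and 5.66 in CL, 5.80 and 5.55 in RS, 6.32, 6.34 and 5.90 in RG, and 6.67, 6.52, 6.51 and 7.32 in WAT. WAT 4 was the highest array, and no BAT, CL, RS or RG array reached the lowest WAT array. Log2 differences from WAT were -1.37 ± 0.22 (SE, adjusted p = 0.000313) in BAT, -0.82 ± 0.22 (SE, adjusted p = 0.0146) in CL and -1.08 ± 0.25 (SE, adjusted p = 0.00893) in RS, and -0.57 ± 0.22 (SE, adjusted p = 0.104) in RG did not pass. Cdk19, a kinase of the Mediator complex, fell in BAT, RS and RG. Cdk19 had log2 levels of 4.71, 5.41 and 5.23 in BAT, 5.69, 6.04 and 5.62 in CL, 4.97 and 5.40 in RS, 5.33, 5.66 and 5.90 in RG, and 6.35, 6.68, 6.20 and 6.20 in WAT. BAT 1 and RS 3 were the lowest arrays, and none of another group reached the lowest WAT array. Log2 differences were -1.24 ± 0.21 (SE, adjusted p = 0.000414) in BAT, -1.17 ± 0.23 (SE, adjusted p = 0.00448) in RS and -0.73 ± 0.21 (SE, adjusted p = 0.0351) in RG, with -0.57 ± 0.21 (SE, adjusted p = 0.0536) in CL. Cdk8, its close relative in Mediator, differed from WAT by -0.04 in BAT, 0.17 in CL, 0.06 in RS and 0.02 in RG, none called. The Cdk12 call in CL against WAT was lost without CL 4 (adjusted p = 0.0743) and after quantile normalization (adjusted p = 0.065), within a range of 0.0122 to 0.0743 over all settings. The Cdk12 call in RS against WAT was lost without RS 4 (adjusted p = 0.0697) and after quantile normalization (adjusted p = 0.0577), within a range of 0.007 to 0.0697 over all settings. The Cdk19 call in RS against WAT was lost without both WAT 4 and RS 3 (adjusted p = 0.0537), within a range of 0.00322 to 0.0537 over all settings. The Cdk19 call in RG against WAT was lost without each of WAT 1, WAT 2, WAT 4, RG 2, RG 3 and RG 4 (adjusted p = 0.0511 to 0.154) and after quantile normalization (adjusted p = 0.0921), within a range of 0.0226 to 0.154 over all settings.

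Cdk7, the kinase of the general factor TFIIH that also activates other CDKs, passed narrowly in RS alone. Cdk7 had log2 levels of 4.35, 4.49 and 4.71 in BAT, 4.46, 4.61 and 4.55 in CL, 4.62 and 3.90 in RS, 4.52, 4.52 and 4.27 in RG, and 4.90, 4.69, 4.74 and 5.02 in WAT. RS 4 held the lowest value and RS 3 lay inside the BAT range, while no array outside WAT but BAT 4 exceeded the lowest WAT array. The log2 difference in RS was -0.58 ± 0.20 (SE, adjusted p = 0.0489). The Cdk7 call in RS against WAT was lost without each of WAT 1, WAT 2, WAT 3, WAT 4, BAT 1, BAT 3, CL 1, CL 3, CL 4, RS 4, RG 2, RG 3 and RG 4 (adjusted p = 0.0504 to 0.518), after quantile normalization (adjusted p = 0.344) and with trend and robust shrinkage (adjusted p = 0.0556), within a range of 0.0139 to 0.518 over all settings. The Cdk7 difference itself was -0.32 after quantile normalization, -0.88 without both WAT 4 and RS 3, -0.94 without RS 3 and -0.22 without RS 4. Cdk20, a kinase first described as an activator of Cdk2, passed in CL with -0.72 ± 0.22 (SE, adjusted p = 0.0288). Cdk20 had log2 levels of 3.68, 3.07 and 3.87 in BAT, 3.24, 2.96 and 3.21 in CL, 3.45 and 3.60 in RS, 3.84, 3.88 and 3.55 in RG, and 3.44, 3.74, 4.39 and 3.85 in WAT. CL arrays were below all WAT arrays, and BAT 3 was lower than 2 of the CL arrays. The Cdk20 call in CL against WAT was lost without each of WAT 3, WAT 4, CL 1, CL 3 and CL 4 (adjusted p = 0.0544 to 0.092) and without both WAT 4 and RS 3 (adjusted p = 0.0551), within a range of 0.0161 to 0.0972 over all settings. Cdk13, the close relative of Cdk12, was not called in any of the 10 comparisons and had its smallest adjusted p, 0.09, in RS against WAT (-0.48 ± 0.20, SE).

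Of the 7 transcription cyclins 1 was called against WAT, Ccnl1, lower in BAT. Of all probe sets, 16.4% were called lower in BAT. In either direction, 44% were called in BAT, 25.2% in CL, 21.4% in RS and 11.4% in RG. Ccnl1 is a cyclin of the splicing-linked Cdk11 kinases, which are not in the set. Ccnl1 had log2 levels of 6.86, 7.06 and 7.06 in BAT, 7.39, 6.84 and 6.69 in CL, 8.26 and 7.10 in RS, 7.16, 7.55 and 7.13 in RG, and 7.62, 7.97, 7.22 and 7.97 in WAT. The 3 BAT arrays lay below all 4 WAT arrays, and RS 3 was the highest array of all. The log2 difference in BAT was -0.70 ± 0.26 (SE, adjusted p = 0.0412). The Ccnl1 call in BAT against WAT was lost without each of WAT 1, WAT 2, WAT 4, BAT 1, BAT 3, BAT 4 and RG 2 (adjusted p = 0.0506 to 0.12) and after quantile normalization (adjusted p = 0.195), within a range of 0.016 to 0.195 over all settings. Ccnt1, the main cyclin of Cdk9, differed by -0.56 ± 0.24 (SE, adjusted p = 0.0722) in BAT, -0.52 ± 0.24 (SE, adjusted p = 0.124) in CL, -0.62 ± 0.27 (SE, adjusted p = 0.109) in RS and -0.62 ± 0.24 (SE, adjusted p = 0.108) in RG, none of which passed. Ccnk, the cyclin of Cdk12 and Cdk13, had its smallest adjusted p, 0.0722, in BAT against WAT. Ccnc, the cyclin of Cdk8 and Cdk19, Ccnh, that of Cdk7, and Ccnt2, the other cyclin of Cdk9, were called nowhere. The 5 uncalled members of this group had log2 differences from WAT of -0.62 to 0.23.

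Of 10 listed protein partners of the transcription kinases, 0 were higher and 6 lower in BAT (median log2 difference -0.61), 0 were higher and 3 lower in CL (median log2 difference -0.29), 0 were higher and 2 lower in RS (median log2 difference -0.50) and 0 were higher and 0 lower in RG (median log2 difference -0.23). The lower calls stand beside 16.4%, 9.97%, 10.3% and 6.24% of all probe sets in the same comparisons. Aff4, a scaffold that brings P-TEFb to genes, fell in BAT, at -0.84 ± 0.13 (SE, adjusted p = 0.000278). It also fell in CL, at -0.47 ± 0.13 (SE, adjusted p = 0.02), and in RS, at -0.73 ± 0.15 (SE, adjusted p = 0.005). Its relative Aff1 fell, at -1.46 ± 0.18 (SE, adjusted p = 6.34e-05) in BAT, -0.92 ± 0.18 (SE, adjusted p = 0.00328) in CL and -0.86 ± 0.21 (SE, adjusted p = 0.0113) in RS. Med13, which ties Cdk8 and Cdk19 to Mediator, fell in BAT, at -0.84 ± 0.18 (SE, adjusted p = 0.00215), and in CL, at -0.59 ± 0.18 (SE, adjusted p = 0.0279). Whether the Aff4 calls in CL and RS and the Med13 call in CL held under the alternatives is not given here. The Aff1 call in RS against WAT was lost without RS 3 (adjusted p = 0.104), after quantile normalization (adjusted p = 0.0697) and without both WAT 4 and RS 3 (adjusted p = 0.172), within a range of 0.00774 to 0.172 over all settings. The Aff1 difference itself was -0.52 without both WAT 4 and RS 3.

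**Figure D3:**
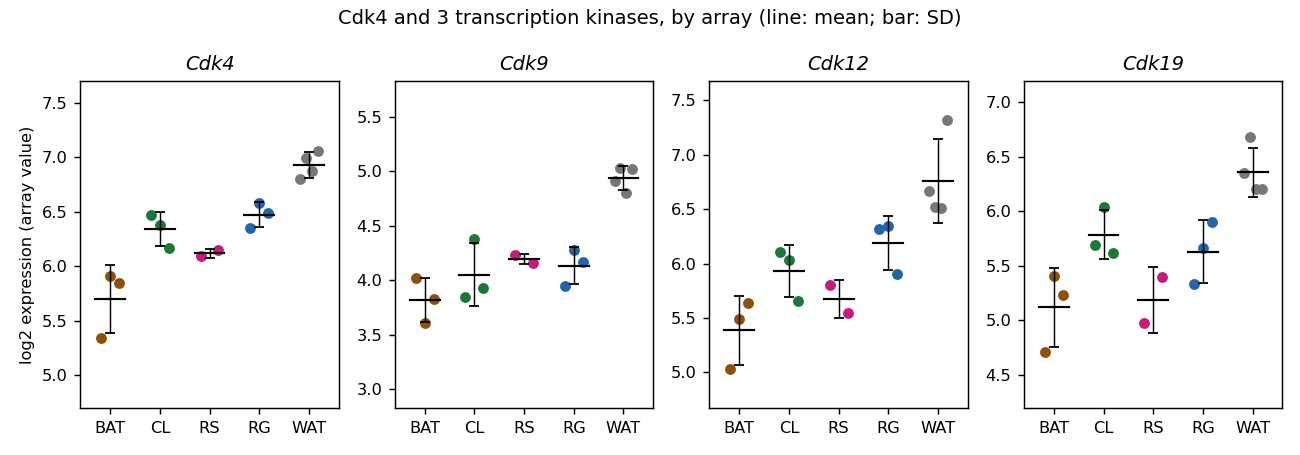
Log2 expression of Cdk4, Cdk9, Cdk12 and Cdk19 in every array, by group, with the group mean (line) and SD (bar). Each y axis spans 3 log2 units, and the WAT arrays of Cdk9 (4.80 to 5.03) lie above all others.

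Among the kinases of the cell cycle, Cdk4, the partner of the D cyclins, fell in 3 groups. Cdk4 had log2 levels of 5.34, 5.91 and 5.85 in BAT, 6.47, 6.38 and 6.17 in CL, 6.09 and 6.15 in RS, 6.35, 6.58 and 6.49 in RG, and 6.80, 6.99, 6.87 and 7.06 in WAT. WAT arrays lay above all others, and BAT arrays were the lowest. Log2 differences from WAT were -1.23 ± 0.16 (SE, adjusted p = 7.77e-05) in BAT, -0.59 ± 0.16 (SE, adjusted p = 0.0152) in CL and -0.81 ± 0.18 (SE, adjusted p = 0.00758) in RS, and -0.46 ± 0.16 (SE, adjusted p = 0.0745) in RG did not pass. Its close relative Cdk6 rose in BAT. Cdk6 had log2 levels of 5.47, 5.11 and 5.51 in BAT, 5.02, 4.92 and 4.77 in CL, 4.70 and 3.85 in RS, 3.76, 4.29 and 3.95 in RG, and 3.99, 4.76, 4.30 and 4.98 in WAT. BAT arrays were the highest, and RG 2 and RS 4 were the lowest. Cdk6 differed from WAT by 0.86 ± 0.25 (SE, adjusted p = 0.0117) in BAT, and it was lower in RG than in BAT, at -1.36 ± 0.26 (SE, adjusted p = 0.00515). The Cdk4 call in CL against WAT was lost without CL 4 (adjusted p = 0.0724) and after quantile normalization (adjusted p = 0.0951), within a range of 0.00822 to 0.0951 over all settings. The Cdk4 call in RS against WAT was lost after quantile normalization (adjusted p = 0.0754) and without both WAT 4 and RS 3 (adjusted p = 0.073), within a range of 0.00405 to 0.0754 over all settings. The Cdk4 difference itself was -0.52 after quantile normalization.

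Cdk3, a kinase that is truncated in many laboratory mouse strains, rose in BAT by 0.87 ± 0.24 (SE, adjusted p = 0.00887). Cdk3 had log2 levels of 4.56, 3.78 and 3.52 in BAT, 3.78, 3.30 and 3.60 in CL, 3.51 and 3.53 in RS, 3.18, 3.68 and 3.38 in RG, and 2.70, 3.48, 3.04 and 3.10 in WAT. BAT 1 was the highest array, and all BAT arrays lay above all WAT arrays. The Cdk3 call in BAT against WAT was lost without BAT 1 (adjusted p = 0.0588), within a range of 0.00477 to 0.0588 over all settings. The Cdk3 difference itself was 0.57 without BAT 1. Cdk1, the kinase of mitosis, was called nowhere. Cdk1 had log2 levels of 2.75, 2.52 and 2.51 in BAT, 2.52, 2.03 and 2.67 in CL, 2.61 and 2.57 in RS, 2.61, 2.41 and 2.35 in RG, and 2.52, 2.63, 3.21 and 3.25 in WAT. All 15 values lay below the 5 used to mark brighter probe sets, WAT 3 and WAT 4 were the highest, and the groups overlapped. Cdk2, the kinase of DNA synthesis, was called nowhere either. Cdk2 had log2 levels of 4.77, 5.63 and 5.0 in BAT, 5.29, 4.88 and 5.13 in CL, 4.73 and 5.08 in RS, 5.10, 5.36 and 5.27 in RG, and 5.50, 5.55, 5.34 and 5.56 in WAT. The RS arrays were below all WAT arrays, while BAT 3 was the highest array. In RS against WAT the difference was -0.58 ± 0.22 (SE, adjusted p = 0.0648), with a 95% interval of -1.04 to -0.12.

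Cyclin D1, encoded by Ccnd1 and induced by growth signals, was the one cyclin called between drugs. Ccnd1 had log2 levels of 4.74, 4.64 and 4.71 in BAT, 5.28, 5.65 and 5.75 in CL, 4.20 and 4.45 in RS, 4.54, 4.35 and 5.33 in RG, and 5.44, 5.79, 5.85 and 5.32 in WAT. CL arrays stood with WAT, the BAT and RS arrays were low with no overlap, and RG was split, with RG 4 beside the lowest WAT array. Against WAT the differences were -0.90 ± 0.22 (SE, adjusted p = 0.00446) in BAT, -1.27 ± 0.25 (SE, adjusted p = 0.00377) in RS and -0.86 ± 0.22 (SE, adjusted p = 0.021) in RG, against -0.04 ± 0.22 (SE, adjusted p = 0.907) in CL. RS was also lower than CL, at -1.24 ± 0.26 (SE, adjusted p = 0.0362), a 2.35-fold difference. Of the endothelial markers 3 of 14 were also called lower in RS than in CL, with a mean level of -2.18 to -0.02 in RS and 0.17 to 1.25 in CL, and their part in the Ccnd1 difference was not tested. Of the macrophage and stromal markers 0 were called by limma in RS against CL, with median log2 differences of -0.68 and -0.91. The Ccnd1 call in BAT against WAT was lost after quantile normalization (adjusted p = 0.0776), within a range of 0.00136 to 0.0776 over all settings. The Ccnd1 difference itself was -0.55 after quantile normalization. The Ccnd1 call in RG against WAT was lost without each of WAT 2, RG 2 and RG 3 (adjusted p = 0.0578 to 0.0945) and after quantile normalization (adjusted p = 0.0619), within a range of 0.00735 to 0.0945 over all settings. The Ccnd1 call in RS against CL was lost without each of WAT 2, CL 1, CL 3, CL 4, RS 3 and RG 2 (adjusted p = 0.0512 to 0.138) and without both WAT 4 and RS 3 (adjusted p = 0.12), within a range of 0.0187 to 0.163 over all settings.

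Ccnd2, cyclin D2, passed in BAT. Ccnd2 had log2 levels of 8.0, 8.22 and 7.61 in BAT, 8.42, 8.59 and 8.48 in CL, 8.13 and 8.63 in RS, 8.65, 8.32 and 8.47 in RG, and 8.68, 8.25, 8.70 and 8.51 in WAT. BAT arrays were below every WAT array, and the RS arrays and WAT arrays overlapped. The log2 difference in BAT was -0.59 ± 0.18 (SE, adjusted p = 0.0166). The Ccnd2 call in BAT against WAT was lost without BAT 4 (adjusted p = 0.0871) and after quantile normalization (adjusted p = 0.0504), within a range of 0.00778 to 0.0871 over all settings. Ccnd3, the other D cyclin, was called nowhere, and its differences from WAT ran from -0.31 in BAT to 0.07 in RG.

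The A, B and E cyclins all had means under 5, and those called higher than WAT are known from germ cells. Ccna1, the A cyclin of male germ cells, rose in BAT, CL and RS. Ccna1 had log2 levels of 3.74, 3.65 and 3.34 in BAT, 2.80, 2.97 and 3.01 in CL, 2.69 and 3.24 in RS, 2.72, 3.02 and 2.62 in RG, and 2.44, 2.47, 2.24 and 2.26 in WAT. Every WAT array was below every other array, and BAT was highest. Log2 differences from WAT were 1.22 ± 0.17 (SE, adjusted p = 0.000115) in BAT, 0.57 ± 0.17 (SE, adjusted p = 0.0229) in CL and 0.61 ± 0.19 (SE, adjusted p = 0.0341) in RS. Ccnb3, a B cyclin of meiosis, was called higher in BAT and CL. Ccnb3 had log2 levels of 1.97, 2.28 and 2.41 in BAT, 1.96, 2.26 and 2.40 in CL, 1.65 and 1.83 in RS, 1.49, 1.43 and 1.81 in RG, and 1.57, 1.54, 1.65 and 1.15 in WAT. BAT and CL arrays lay above all WAT arrays, and all 15 values were below the array medians. Log2 differences were 0.74 ± 0.17 (SE, adjusted p = 0.00383) in BAT and 0.73 ± 0.17 (SE, adjusted p = 0.00873) in CL. Ccnb3 lay near the low end of the arrays, whose 10th percentile was 2.11 to 2.15 in BAT and 1.97 to 2.03 in CL, against 1.51 to 1.68 in WAT. That low end was itself higher in BAT and CL. The Ccna1 call in CL against WAT was lost without each of WAT 3, WAT 4, CL 3 and CL 4 (adjusted p = 0.0528 to 0.0801) and after quantile normalization (adjusted p = 0.231), within a range of 0.0141 to 0.231 over all settings. The Ccna1 difference itself was 0.33 after quantile normalization. The Ccna1 call in RS against WAT was lost without each of WAT 3, WAT 4 and RS 4 (adjusted p = 0.0671 to 0.327), after quantile normalization (adjusted p = 0.3) and after median centring (adjusted p = 0.0542), within a range of 0.021 to 0.327 over all settings. The Ccna1 difference itself was 0.33 after quantile normalization and 0.34 without RS 4. The Ccnb3 call in BAT against WAT was lost after quantile normalization (adjusted p = 0.373), within a range of 0.00348 to 0.373 over all settings. The Ccnb3 difference itself was 0.22 after quantile normalization. The Ccnb3 call in CL against WAT was lost after quantile normalization (adjusted p = 0.194), within a range of 0.008 to 0.194 over all settings. The Ccnb3 difference itself was 0.35 after quantile normalization.

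Ccnb2, a B cyclin of mitosis, fell in BAT. Ccnb2 had log2 levels of 3.62, 3.31 and 3.19 in BAT, 3.86, 3.80 and 3.63 in CL, 3.92 and 3.61 in RS, 3.40, 3.33 and 3.86 in RG, and 3.86, 4.19, 3.89 and 4.48 in WAT. BAT arrays lay below all WAT arrays, and WAT 4 was the highest of the 15. The log2 difference in BAT was -0.73 ± 0.19 (SE, adjusted p = 0.00669).  Ccna2, the A cyclin of dividing somatic cells, was called nowhere, with differences from WAT of -0.67 in BAT, -0.25 in CL, -0.43 in RS and -0.13 in RG, and its highest array was WAT 4 at 3.58. Ccnb1, the main B cyclin of mitosis, was not called against WAT, and it was lower in RG than in BAT, at -0.90 ± 0.28 (SE, adjusted p = 0.0452). The E cyclins were not called against WAT, with Ccne1 at -0.45 ± 0.19 (SE, adjusted p = 0.0621) in BAT, and Ccnf, which marks proteins for destruction, was called nowhere. The mean of 22 markers of dividing cells was -0.20 to -0.11 in BAT, 0.07 to 0.14 in CL, -0.16 to -0.12 in RS and -0.25 to -0.08 in RG, against 0.04 to 0.48 in WAT, relative to all arrays. Its highest array was WAT 4, as for Ccnb2 and Ccna2.

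Genes on either side of the kinases were counted in the same way. Of 13 genes of the retinoblastoma and E2F families, 1 was higher and 4 lower in BAT (median log2 difference -0.35), 0 were higher and 1 lower in CL (median log2 difference -0.11), 0 were higher and 3 lower in RS (median log2 difference -0.24) and 1 was higher and 1 lower in RG (median log2 difference -0.04). The background was 16.4% of all probe sets lower in BAT, 9.97% in CL, 10.3% in RS and 6.24% in RG, and 27.6% higher in BAT, 15.2% in CL, 11.1% in RS and 5.19% in RG. E2f1, an activator of DNA synthesis genes, fell, at -0.91 ± 0.27 (SE, adjusted p = 0.026) in RS and -0.95 ± 0.23 (SE, adjusted p = 0.0185) in RG. Rbl1, a relative of the retinoblastoma protein, fell in BAT, at -0.89 ± 0.17 (SE, adjusted p = 0.0011). The gene called higher in BAT was E2f2, at 1.06 ± 0.25 (SE, adjusted p = 0.00424). The E2f1 call in RS against WAT was lost without each of WAT 2, WAT 3, WAT 4 and RS 4 (adjusted p = 0.0519 to 0.251) and after quantile normalization (adjusted p = 0.122), within a range of 0.0156 to 0.251 over all settings. The E2f1 difference itself was -0.57 without RS 4. The E2f1 call in RG against WAT was lost without each of WAT 2, RG 2 and RG 4 (adjusted p = 0.0512 to 0.0931) and after quantile normalization (adjusted p = 0.0713), within a range of 0.0105 to 0.0931 over all settings. Of 16 genes that switch CDKs on, off or mark them for destruction, 0 were higher and 5 lower in BAT (median log2 difference -0.20), 0 were higher and 2 lower in CL (median log2 difference -0.13), 1 was higher and 3 lower in RS (median log2 difference -0.19) and 0 were higher and 1 lower in RG (median log2 difference -0.11). These counts stand beside the same shares of all probe sets. Wee1, the kinase that blocks Cdk1 and Cdk2, was lower than WAT in every group. Wee1 had log2 levels of 3.87, 4.28 and 3.75 in BAT, 2.92, 3.99 and 3.18 in CL, 3.21 and 3.65 in RS, 3.99, 3.44 and 4.34 in RG, and 5.26, 4.88, 5.30 and 4.99 in WAT. Its differences were -1.14 ± 0.26 (SE, adjusted p = 0.00306) in BAT, -1.74 ± 0.26 (SE, adjusted p = 0.000594) in CL, -1.68 ± 0.29 (SE, adjusted p = 0.00206) in RS and -1.18 ± 0.26 (SE, adjusted p = 0.0108) in RG. The phosphatases that undo this block moved in opposite directions in RS. Cdc25b rose by 0.93 ± 0.22 (SE, adjusted p = 0.0102) over WAT, and Cdc25a fell, at -0.59 ± 0.17 (SE, adjusted p = 0.0223). The Cdc25b call in RS against WAT was lost without RS 4 (adjusted p = 0.0932), within a range of 0.00672 to 0.0932 over all settings. The Cdc25a call in RS against WAT was lost without each of WAT 4 and RS 4 (adjusted p = 0.0554 to 0.148) and without both WAT 4 and RS 3 (adjusted p = 0.0774), within a range of 0.0101 to 0.148 over all settings.

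Cdk5 and its activators, the route by which roscovitine is known to act on PPARG, did not pass in any comparison. Cdk5 had log2 levels of 6.08, 6.48 and 5.90 in BAT, 6.49, 6.0 and 6.53 in CL, 6.52 and 6.48 in RS, 6.56, 6.69 and 6.39 in RG, and 6.28, 6.11, 6.25 and 6.01 in WAT. RS and RG arrays lay above all WAT arrays, and BAT and CL arrays spread across the WAT range. The log2 difference from WAT was 0.34 ± 0.20 in RS (SE, adjusted p = 0.22, 95% interval -0.08 to 0.76) and 0.38 ± 0.17 in RG (SE, adjusted p = 0.161, 95% interval 0.01 to 0.75). In BAT it was -0.01 ± 0.17 (SE, adjusted p = 0.97) and in CL 0.18 ± 0.17 (SE, adjusted p = 0.47). Cdk5r1 encodes p35, the activator of Cdk5 in neurons. Cdk5r1 had log2 levels of 3.25, 3.24 and 2.87 in BAT, 3.24, 2.85 and 2.54 in CL, 3.29 and 3.52 in RS, 2.64, 2.78 and 2.79 in RG, and 2.66, 2.95, 2.45 and 3.19 in WAT. The RS arrays were the highest, above all WAT arrays, at 0.59 ± 0.23 (SE, adjusted p = 0.0706) from WAT. Cdk5r2 encodes the related activator p39. Cdk5r2 had log2 levels of 3.53, 2.91 and 2.92 in BAT, 2.77, 3.11 and 3.39 in CL, 3.30 and 3.21 in RS, 3.45, 3.14 and 3.18 in RG, and 3.45, 3.02, 3.14 and 3.10 in WAT. Its groups overlapped, and its differences from WAT ran from -0.09 in CL to 0.08 in RG. These arrays measure messages, not kinase activity.

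Of 6 other genes of this route, 1 was higher and 2 lower in BAT (median log2 difference -0.09), 0 were higher and 2 lower in CL (median log2 difference -0.15), 1 was higher and 1 lower in RS (median log2 difference -0.14) and 1 was higher and 1 lower in RG (median log2 difference 0.00). Over all probe sets the share called was 16.4% lower in BAT, 9.97% in CL, 10.3% in RS and 6.24% in RG, and 27.6% higher in BAT, 15.2% in CL, 11.1% in RS and 5.19% in RG. Pparg itself, the nuclear receptor that rosiglitazone binds, rose by 0.54 ± 0.17 (SE, adjusted p = 0.0195) in BAT, 0.56 ± 0.19 (SE, adjusted p = 0.0496) in RS and 0.91 ± 0.17 (SE, adjusted p = 0.00458) in RG. Capn1, a calpain, the protease family that cleaves p35, fell in each group, at -1.19 ± 0.22 (SE, adjusted p = 0.00075) in BAT, -0.70 ± 0.22 (SE, adjusted p = 0.0289) in CL, -1.39 ± 0.25 (SE, adjusted p = 0.00219) in RS and -0.71 ± 0.22 (SE, adjusted p = 0.0467) in RG. The Pparg call in BAT against WAT was lost without each of WAT 2, WAT 4 and BAT 3 (adjusted p = 0.0523 to 0.0852), after median centring (adjusted p = 0.0579) and without both WAT 4 and RS 3 (adjusted p = 0.0512), within a range of 0.00446 to 0.0852 over all settings. The Pparg call in RS against WAT was lost without each of WAT 2, WAT 3, WAT 4, BAT 1, CL 1, CL 3, CL 4, RS 3, RS 4, RG 2, RG 3 and RG 4 (adjusted p = 0.0516 to 0.286), after median centring (adjusted p = 0.0913) and without both WAT 4 and RS 3 (adjusted p = 0.442), within a range of 0.02 to 0.442 over all settings. The Pparg difference itself was 0.29 without both WAT 4 and RS 3. The Capn1 call in CL against WAT was lost without each of WAT 2, WAT 4, CL 1, CL 3 and CL 4 (adjusted p = 0.0579 to 0.0832), after quantile normalization (adjusted p = 0.179) and without both WAT 4 and RS 3 (adjusted p = 0.074), within a range of 0.018 to 0.179 over all settings. The Capn1 difference itself was -0.46 after quantile normalization. The Capn1 call in RG against WAT was lost without each of WAT 2, WAT 3, WAT 4, BAT 1, CL 1, CL 3, CL 4, RG 2 and RG 3 (adjusted p = 0.051 to 0.154), after quantile normalization (adjusted p = 0.139), after median centring (adjusted p = 0.0528), with trend and robust shrinkage (adjusted p = 0.0504) and without both WAT 4 and RS 3 (adjusted p = 0.114), within a range of 0.0318 to 0.154 over all settings. Of 16 mature adipocyte markers, Pparg among them, 6 were higher than WAT in BAT, 5 in CL, 5 in RS and 9 in RG, and their part in these values was not tested.

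**Figure D4:**
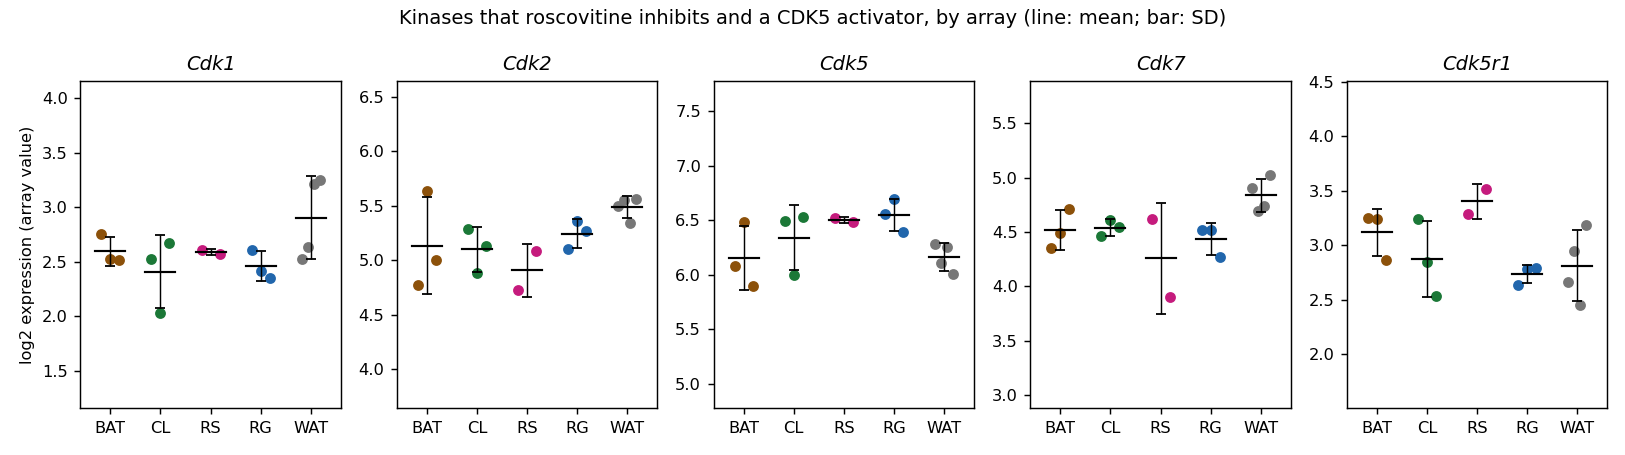
Log2 expression of Cdk1, Cdk2, Cdk5, Cdk7 and Cdk5r1 in every array, by group, with the group mean (line) and SD (bar). Each y axis spans 3 log2 units, and of these 5 genes only Cdk7 was called, in RS against WAT.

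The kinases named for their PCTAIRE and PFTAIRE motifs, Cdk14 to Cdk18, held 4 of the 5 calls between drugs. Cdk17 was called in both RS against CL and CL against RG, which share the CL arrays. Of all probe sets, 1.27% were called in RS against CL, 2.87% in CL against RG and 0.682% in RS against RG. Cdk17 was lowest in RS and RG. Cdk17 had log2 levels of 4.47, 4.84 and 4.45 in BAT, 4.80, 4.86 and 4.82 in CL, 3.64 and 3.64 in RS, 3.86, 4.04 and 4.06 in RG, and 4.28, 4.52, 4.56 and 4.73 in WAT. Both RS arrays were the lowest of all, RG arrays came next, and BAT and CL arrays stood with or above WAT. Log2 differences from WAT were -0.88 ± 0.17 (SE, adjusted p = 0.00334) in RS and -0.54 ± 0.15 (SE, adjusted p = 0.0312) in RG. Between drugs, RS was 2.28-fold lower than CL, at -1.19 ± 0.18 (SE, adjusted p = 0.00869), and CL was higher than RG by 0.84 ± 0.16 (SE, adjusted p = 0.0169). In CL against RG 3 of 10 thermogenic markers were also called higher (median log2 difference 0.72) and 1 of 14 endothelial markers, Kdr (median 1.54). In RS against CL 3 of 10 thermogenic and 3 of 14 endothelial markers were called lower, and the part of these markers in the Cdk14, Cdk17, Cdk18 and Ccnd1 calls was not tested. RS against RG was -0.35 ± 0.18 (SE, adjusted p = 0.31) and did not pass, with a 95% interval of -0.72 to 0.03. RS was lower than BAT, at -0.95 ± 0.18 (SE, adjusted p = 0.0111), and so was RG, at -0.60 ± 0.16 (SE, adjusted p = 0.0228). The Cdk17 call in RG against WAT was lost without each of WAT 2, WAT 3, WAT 4, RG 2, RG 3 and RG 4 (adjusted p = 0.06 to 0.126), after quantile normalization (adjusted p = 0.125) and without both WAT 4 and RS 3 (adjusted p = 0.0869), within a range of 0.0217 to 0.126 over all settings. The Cdk17 call in CL against RG was lost without each of RG 2 and RG 3 (adjusted p = 0.0706 to 0.0782), within a range of 0.0134 to 0.183 over all settings. The Cdk17 call in RS against BAT was lost without RS 3 (adjusted p = 0.054), within a range of 0.00342 to 0.0699 over all settings. The Cdk17 call in RG against BAT was lost without each of BAT 3, RG 2 and RG 3 (adjusted p = 0.0559 to 0.0887) and after median centring (adjusted p = 0.0513), within a range of 0.00919 to 0.123 over all settings.

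Cdk18 was lowest in the CL arrays. Cdk18 had log2 levels of 3.76, 4.09 and 4.25 in BAT, 3.48, 3.21 and 3.46 in CL, 4.14 and 4.28 in RS, 4.37, 4.12 and 4.14 in RG, and 4.57, 4.16, 4.70 and 4.17 in WAT. No CL array reached the lowest array of another group. CL differed from WAT by -1.02 ± 0.17 (SE, adjusted p = 0.00139) and from RG by -0.83 ± 0.19 (SE, adjusted p = 0.0328), while CL against BAT was -0.65 ± 0.19 (SE, adjusted p = 0.0779) and RS against CL 0.83 ± 0.21 (SE, adjusted p = 0.066). Cdk14, a kinase that works with cyclin Y at the cell membrane in Wnt signalling, fell in BAT. Cdk14 had log2 levels of 5.26, 4.88 and 4.74 in BAT, 5.66, 6.10 and 5.44 in CL, 6.34 and 6.39 in RS, 6.87, 6.59 and 6.44 in RG, and 6.24, 5.79, 6.27 and 6.26 in WAT. BAT arrays were the lowest, RG arrays were the highest, and CL arrays overlapped WAT 2 alone of the WAT arrays. BAT differed from WAT by -1.18 ± 0.19 (SE, adjusted p = 0.000364). RS and RG exceeded BAT by 1.41 ± 0.23 (SE, adjusted p = 0.00512) and 1.67 ± 0.21 (SE, adjusted p = 0.000395), and CL was lower than RG, at -0.90 ± 0.21 (SE, adjusted p = 0.0343). Ccny, cyclin Y, was called nowhere. Cdk15, Cdk16 and Cdk10 were called nowhere either, with Cdk16 in RG against WAT at 0.40 ± 0.17 (SE, adjusted p = 0.135). The Cdk18 call in CL against RG was lost without each of CL 1, CL 3, CL 4, RG 2, RG 3 and RG 4 (adjusted p = 0.0646 to 0.125), within a range of 0.0256 to 0.248 over all settings. The Cdk14 call in CL against RG was lost without each of CL 1, CL 4, RG 2, RG 3 and RG 4 (adjusted p = 0.0531 to 0.132) and after quantile normalization (adjusted p = 0.0626), within a range of 0.029 to 0.208 over all settings.

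**Figure D5:**
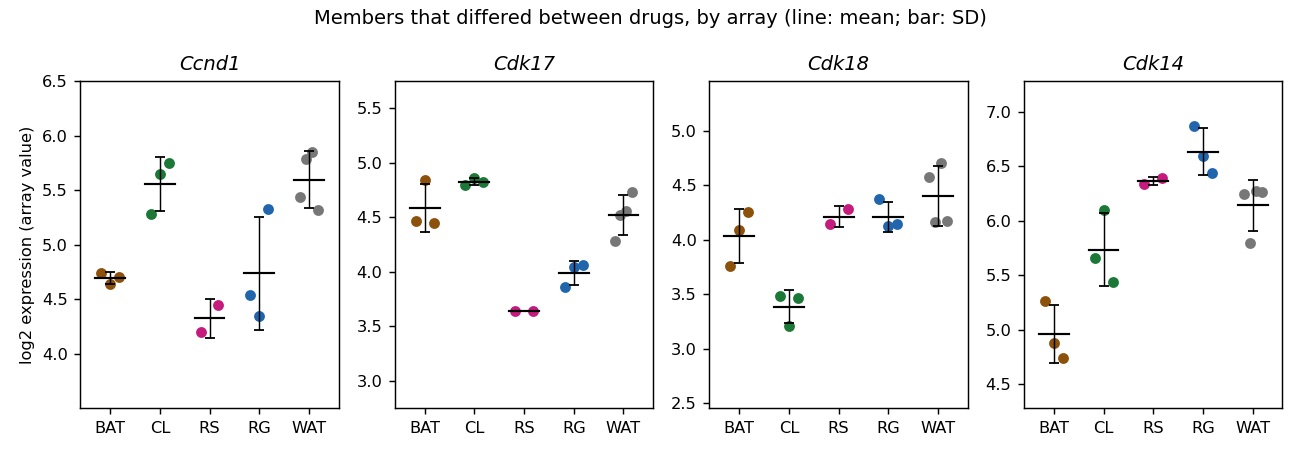
Log2 expression of Ccnd1, Cdk17, Cdk18 and Cdk14, the members that differed between drugs, in every array by group, with the group mean (line) and SD (bar). Each y axis spans 3 log2 units. The RS arrays of Ccnd1 (4.20 and 4.45) lie below the CL arrays (5.28 to 5.75).

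Of the inhibitors, Cdkn1a and Cdkn2c changed in RS in opposite directions. Cdkn1a encodes p21, which p53 induces. Cdkn1a had log2 levels of 8.58, 8.89 and 9.56 in BAT, 9.05, 9.28 and 8.66 in CL, 7.74 and 8.87 in RS, 8.62, 8.96 and 8.80 in RG, and 9.37, 9.76, 9.64 and 9.77 in WAT. RS 3 was the lowest array, WAT arrays were high, and BAT 4 lay inside the WAT range. RS differed from WAT by -1.33 ± 0.30 (SE, adjusted p = 0.00816), a 2.51-fold decrease that depended on RS 3, while BAT, CL and RG differed by -0.62 ± 0.27 (SE, adjusted p = 0.0669), -0.64 ± 0.27 (SE, adjusted p = 0.0877) and -0.84 ± 0.27 (SE, adjusted p = 0.0519). The Cdkn1a call in RS against WAT was lost without RS 3 (adjusted p = 0.12) and without both WAT 4 and RS 3 (adjusted p = 0.177), within a range of 0.00334 to 0.177 over all settings. The Cdkn1a difference itself was -0.72 without both WAT 4 and RS 3 and -0.77 without RS 3. Cdkn1b, which encodes p27, fell in BAT, at -0.56 ± 0.20 (SE, adjusted p = 0.0361), with BAT 4 at 4.19 inside the WAT range of 4.15 to 4.55. The Cdkn1b call in BAT against WAT was lost without each of WAT 2, WAT 3, WAT 4, BAT 1 and BAT 3 (adjusted p = 0.05 to 0.173) and after quantile normalization (adjusted p = 0.188), within a range of 0.00943 to 0.188 over all settings. Cdkn1c, which encodes p57, was called nowhere, with log2 differences from WAT of -0.13 to -0.06.

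Cdkn2c encodes p18, an INK4 inhibitor of Cdk4 and Cdk6. Cdkn2c had log2 levels of 6.79, 6.64 and 6.85 in BAT, 7.06, 6.81 and 7.06 in CL, 7.46 and 7.43 in RS, 7.45, 7.09 and 7.67 in RG, and 6.84, 6.35, 6.99 and 5.29 in WAT. RS and RG arrays lay above all WAT arrays, and WAT 4, the array with the least Adipoq, was the lowest of the 15. Log2 differences from WAT were 1.08 ± 0.34 (SE, adjusted p = 0.0357) in RS and 1.04 ± 0.30 (SE, adjusted p = 0.0374) in RG, a 2.11-fold and a 2.05-fold increase. In CL and BAT they were 0.61 ± 0.30 (SE, adjusted p = 0.143) and 0.39 ± 0.30 (SE, adjusted p = 0.296). The Cdkn2c call in RS against WAT was lost without each of WAT 2, RS 3 and RS 4 (adjusted p = 0.0619 to 0.124) and without both WAT 4 and RS 3 (adjusted p = 0.118), within a range of 0.0194 to 0.124 over all settings. The Cdkn2c difference itself was 0.70 without both WAT 4 and RS 3 and 0.72 without WAT 4. The Cdkn2c call in RG against WAT was lost without each of WAT 2, WAT 4, RG 2 and RG 4 (adjusted p = 0.0518 to 0.146) and without both WAT 4 and RS 3 (adjusted p = 0.0503), within a range of 0.0187 to 0.146 over all settings. The Cdkn2c difference itself was 0.68 without both WAT 4 and RS 3 and 0.68 without WAT 4. Cdkn2d, which encodes the INK4 inhibitor p19, fell in BAT. Cdkn2d had log2 levels of 4.80, 4.72 and 4.46 in BAT, 5.07, 4.97 and 4.76 in CL, 4.83 and 4.95 in RS, 5.08, 4.87 and 5.10 in RG, and 4.98, 4.98, 5.04 and 5.23 in WAT. BAT arrays were below all WAT arrays at -0.40 ± 0.14 (SE, adjusted p = 0.0361). The Cdkn2d call in BAT against WAT was lost without each of WAT 2, WAT 3, WAT 4, BAT 3 and BAT 4 (adjusted p = 0.0515 to 0.14), after quantile normalization (adjusted p = 0.816) and without both WAT 4 and RS 3 (adjusted p = 0.0951), within a range of 0.0141 to 0.816 over all settings. The Cdkn2d difference itself was -0.05 after quantile normalization. Cdkn2a, whose probe set does not separate its p16 and ARF products, and Cdkn2b, which encodes p15, were called nowhere.

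Cdkn2aipnl, which carries an inhibitor-like name only, fell in BAT, at -1.33 ± 0.21 (SE, adjusted p = 0.000264). Cdkn2aipnl had log2 levels of 5.25, 5.88 and 5.43 in BAT, 6.23, 6.49 and 6.44 in CL, 6.32 and 6.59 in RS, 6.63, 6.25 and 6.69 in RG, and 7.03, 6.49, 7.26 and 6.62 in WAT. The BAT arrays were the lowest of all. RS and RG exceeded BAT by 0.94 ± 0.25 (SE, adjusted p = 0.0492) and 1.00 ± 0.22 (SE, adjusted p = 0.0105). The Cdkn2aipnl call in RS against BAT was lost without each of WAT 1, WAT 2, BAT 1, BAT 4, CL 1, CL 3, CL 4, RS 3, RS 4, RG 2, RG 3 and RG 4 (adjusted p = 0.0541 to 0.177), after quantile normalization (adjusted p = 0.0509) and without both WAT 4 and RS 3 (adjusted p = 0.0933), within a range of 0.0353 to 0.21 over all settings. Cdkn2aip, whose product binds ARF, was called nowhere.

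The p53 pathway list held 10 genes besides Cdkn1a, not all of them upstream of it. Of these 10 genes, 0 were higher and 5 lower in BAT (median log2 difference -0.82) and 0 were higher and 5 lower in CL (median log2 difference -0.42). In RS 0 were higher and 5 lower (median log2 difference -0.60), and in RG 0 were higher and 4 lower (median log2 difference -0.36). The same call covered 16.4% of all probe sets lower in BAT, 9.97% in CL, 10.3% in RS and 6.24% in RG. One of them, Ccng1, is a cyclin G and a member here, and it was called nowhere, with its smallest adjusted p, 0.0549, in BAT against WAT at a log2 difference of 0.48. Trp53, which encodes p53, fell in each group, at -1.25 ± 0.17 (SE, adjusted p = 0.000124) in BAT, -0.96 ± 0.17 (SE, adjusted p = 0.00188) in CL, -0.94 ± 0.20 (SE, adjusted p = 0.0056) in RS and -0.81 ± 0.17 (SE, adjusted p = 0.0104) in RG. Gdf15, a secreted stress factor, was lowest in RS. Gdf15 had log2 levels of 3.48, 3.82 and 3.32 in BAT, 4.38, 4.51 and 4.49 in CL, 3.07 and 2.99 in RS, 4.40, 4.62 and 4.0 in RG, and 5.36, 5.17, 4.84 and 5.67 in WAT. No RS array reached the lowest array of another group. RS was lower than CL, at -1.43 ± 0.24 (SE, adjusted p = 0.0161), and than RG, at -1.31 ± 0.24 (SE, adjusted p = 0.0304). RS against BAT, at -0.51 ± 0.24 (SE, adjusted p = 0.245), did not pass. BAT too was lower than WAT in Gdf15, at -1.72 ± 0.20 (SE, adjusted p = 3.53e-05). Macrophage and stromal markers were also lower outside WAT, and their part in these values was not tested. The Trp53 call in RS against WAT was lost without both WAT 4 and RS 3 (adjusted p = 0.0601), within a range of 0.00358 to 0.0601 over all settings. The Gdf15 call in RS against CL was lost without each of CL 3 and RS 3 (adjusted p = 0.0546 to 0.0587), within a range of 0.0101 to 0.116 over all settings. The Gdf15 call in RS against RG was lost without each of WAT 2, RS 4, RG 2, RG 3 and RG 4 (adjusted p = 0.0504 to 0.107), within a range of 0.0248 to 0.251 over all settings.

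The 7 remaining cyclins, Ccng1, Ccng2, Ccni, Ccnj, Ccno, Ccnq and Ccny, were called in none of the 10 comparisons. Their differences from WAT lay between -0.46, for Ccny in RS, and 0.60, for Ccnj in RG. Ccng2, a cyclin of resting cells, and Ccnq, the partner of Cdk10, were among them. In all 30 of the 55 members were called in no comparison, and 25 in at least 1. The spread within groups was close to that of other genes. The pooled within-group SD had a median of 0.26 over the members and 0.27 over all probe sets, and ran from 0.14 for Cdkn2a to 0.45 for Cdkn2c.

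Between drugs 5 calls were made in all, and the most calls outside the WAT comparisons were in RG against BAT. RS against CL called 2 of the 55, Ccnd1 and Cdk17, both lower in RS and 3.64% of the members, where 1.27% of all probe sets were called, 0.476% higher and 0.797% lower. RS against RG called 0 by limma, with 5 members at an unadjusted p under 0.05, and 0.682% of all probe sets. CL against RG called 3, Cdk17 higher and Cdk14 and Cdk18 lower in CL, or 5.45% of the members, against 2.87% of all probe sets, 1.65% higher and 1.22% lower. CL against BAT called 0 by limma, with 12 at an unadjusted p under 0.05, against 2.05%. RS against BAT called 3, Cdk14 and Cdkn2aipnl higher and Cdk17 lower in RS, or 5.45%, against 3.67% of all probe sets, 1.33% higher and 2.34% lower. RG against BAT called 11, 6 higher and 5 lower, or 20% of the members, against 14.3% of all probe sets, 5.85% higher and 8.42% lower. That split was 7 higher and 2 lower after median centring, 3 and 5 after quantile normalization, and 5 and 0 among the 27 brighter members. RG exceeded BAT in Ccne2, Ccnl2, Cdk12, Cdk14, Cdk4 and Cdkn2aipnl and was lower in Ccna1, Ccnb1, Ccnb3, Cdk17 and Cdk6. Their log2 differences ran from -1.36 for Cdk6 to 1.67 for Cdk14. The Ccne2 call in RG against BAT was lost without each of WAT 1, WAT 2, WAT 3, WAT 4, BAT 1, BAT 3, BAT 4, CL 1, CL 3, CL 4, RG 2 and RG 4 (adjusted p = 0.0501 to 0.144), within a range of 0.0146 to 0.212 over all settings. The Ccnl2 call in RG against BAT was lost without each of BAT 3, BAT 4, RG 2, RG 3 and RG 4 (adjusted p = 0.0677 to 0.11) and after quantile normalization (adjusted p = 0.151), within a range of 0.0111 to 0.162 over all settings. The Cdk12 call in RG against BAT was lost without each of BAT 1, BAT 3, RG 2 and RG 3 (adjusted p = 0.0528 to 0.127) and after quantile normalization (adjusted p = 0.138), within a range of 0.0154 to 0.167 over all settings. The Cdk4 call in RG against BAT was lost after quantile normalization (adjusted p = 0.0573), within a range of 0.00664 to 0.101 over all settings. The Ccnb1 call in RG against BAT was lost without each of WAT 1, WAT 2, WAT 3, BAT 3, BAT 4, CL 1, RG 2, RG 3 and RG 4 (adjusted p = 0.0519 to 0.156) and after median centring (adjusted p = 0.0603), within a range of 0.0207 to 0.156 over all settings. The Ccnb3 call in RG against BAT was lost without each of BAT 3, BAT 4, RG 2 and RG 3 (adjusted p = 0.0732 to 0.113), after quantile normalization (adjusted p = 0.242) and after median centring (adjusted p = 0.0599), within a range of 0.0241 to 0.242 over all settings. The Ccnb3 difference itself was -0.35 after quantile normalization. Comparisons that share BAT, CL, RG or WAT arrays are not independent of each other. The RS against CL count was 1 without any of WAT 2, CL 1, CL 3, CL 4, RS 3 or RG 2. CL against RG called 1 without CL 1 or CL 4 and 0 by limma without RG 2 or RG 3. CL against BAT had 1 without BAT 3, RS 3, RS 4 or RG 4 and 2 without both WAT 4 and RS 3. RS against BAT had 5 without RS 4, and RG against BAT had 6 without BAT 3 or RG 3, 7 without BAT 4 and 5 without RG 2.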

How the data were processed

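Expression was measured in 15 sorted-cell samples, 1 array each, in the 5 groups that the sample titles give. Per the labels, 2 ng of total RNA was amplified and biotin-labelled with the GeneChip WT Pico kit. The values, as deposited by the authors, are on a log2 scale with 1 for each probe set of an array. Per the submitters' processing notes, Affymetrix Expression Console, RMA and affy 1.36.1 were used, and no settings are named. The probe set definition and genome build are not given in the sources used here. Probe sets were named by the Entrez number in their identifier, 54 members through the platform table and Ccnb1 through RefSeq alone. In all 23740 of 25206 were named.

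No values were filtered. All 15 arrays were fitted in 1 model with a mean per group (limma 3.58.1 in R 4.3.3, lmFit, contrasts.fit and eBayes), leaving 10 residual degrees of freedom. P-values are two-sided, were adjusted by Benjamini-Hochberg across every probe set for each of 10 comparisons, and count as called under 0.05. Each adjusted p in the text is from this fit or a named alternative of it. With 2 arrays, RS borrows its spread from the rest. The number of arrays limits the precision. Recovery was tried on simulated data for 25206 probe sets, of which 200 were changed. A change of 2 log2 units was recovered in 94% (BAT against WAT), 93% (RS against WAT) and 92% (RS against CL) of cases. A change of 1 was recovered in 63%, 40% and 30% in the same order. Of all probe sets, 44%, 21.4% and 1.27% were called in the real arrays, again in that order. The Benjamini-Hochberg cut-off depends on the share changed, which the simulation did not match to the arrays. Its recovery figures therefore do not carry over to the comparisons with WAT.

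Arrays of different groups share replicate numbers. Over 24 same-numbered pairs, deviations from group means correlated between -0.88 and -0.05, so the numbers were not used as pairs. No 2 arrays held the same values. Arrays of 1 group correlated between 0.945 and 0.988.

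The members and lists were chosen with earlier results of these data known. Values in every array are given for members called with no overlap of arrays against WAT or between drugs, and for Cdk1, Cdk2, Cdk5, Cdk7, Cdk9, Cdk5r1 and Cdk5r2. Pathway genes named are at most 4 a list, chosen among the 4 of smallest p in a comparison but not strictly in that order. Some genes of smaller p than a named one were passed over. Cks1b, in BAT against WAT, stood at -1.57 ± 0.27 (SE, adjusted p = 0.000501, limma). Mdm2, in CL against WAT, stood at -1.23 ± 0.20 (SE, adjusted p = 0.00114, limma). For these and E2f2 the alternatives were not examined. Promoters are RefSeq windows on GRCm38.p6. Alternatives were a replicate block, quantile normalization, median centring, a brightness limit, other shrinkage, and leaving out arrays.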

Additional observations from a re-analysis of the deposited data

Results flagged for a closer look

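One array of Cdk14 lay far from the rest of its group. WAT 2 was at 5.79, against 6.24 to 6.27 in WAT 1, WAT 3 and WAT 4 and past the 95% critical value of Dixon's gap test. Chance marks about 1 in 20 groups, and 55 were tested, 1 per member.

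Of the differences between drugs, 5 passed limma's test of the difference itself. RS against CL was -1.24 log2 units in Ccnd1 and -1.19 in Cdk17, with both RS arrays below all 3 CL arrays. CL against RG was -0.90 in Cdk14, -0.83 in Cdk18 and 0.84 in Cdk17, each with no overlap between the 3 arrays of either group. Of all probe sets, 1.27% were called in RS against CL and 2.87% in CL against RG. Lack of overlap was common among called members elsewhere, with 15 of 16 in BAT against WAT and 11 of 11 in RG against BAT. Its share over all probe sets is not given here, so it adds nothing to these calls.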

How the results depend on the processing

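Of 57 member calls over the 10 comparisons, none changed sign under any alternative. Quantile normalization kept 33, median centring 53, trend and robust shrinkage 56, and leaving out both WAT 4 and RS 3 kept 46. Member counts that moved by over 1.5 times were as follows. With the replicate number as a replicate block, a fit with 7 residual degrees of freedom that kept 24 of the calls, the counts were 3 in CL against WAT, 6 in RS against WAT, 1 in RG against WAT, 0 in RS against CL, 0 in CL against RG, 1 in RS against BAT and 1 in RG against BAT. No array correlated best with a same-numbered one, so a call lost under the block is not read as a weaker effect. Such losses are left out of the lists for single genes, while the ranges over all settings include the block. After quantile normalization they were 3 in RG against WAT and 1 in CL against BAT. Among probe sets with a mean of at least 5, which hold 27 of the 55 members, they were 8 in BAT against WAT, 3 in CL against WAT, 6 in RS against WAT, 1 in RS against CL, 1 in CL against RG and 5 in RG against BAT, fewer because fewer members were tested. Without both WAT 4 and RS 3 they were 5 in RS against WAT, 3 in RG against WAT, 1 in RS against CL and 2 in CL against BAT. For the other moves the cause was not tested. Leaving out 1 array at a time gave 13 to 19 in BAT against WAT, 3 to 10 in CL against WAT, 6 to 10 in RS against WAT, 1 to 7 in RG against WAT, 1 to 3 in RS against CL, 0 to 0 in RS against RG, 0 to 4 in CL against RG, 0 to 1 in CL against BAT, 2 to 5 in RS against BAT and 5 to 11 in RG against BAT. Quantile normalization set the split in BAT at 4 higher and 10 lower, in RS at 3 and 4 and in RS against BAT at 1 and 2. Without RS 3 or RS 4 the RS group is 1 array, assumed to vary like the others. Of the members, 28 had a mean under 5, and no detection call was used to tell their signal from background. Their spread was not uniformly wider. The lowest pooled within-group SD, 0.14 for Cdkn2a, was among them, and the highest, 0.45 for Cdkn2c, was not.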
